A study of Saccharomyces cerevisiae with 54 samples.

Results

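The 10 genes described here encode the enzymes of de novo pyrimidine synthesis in Saccharomyces cerevisiae, their activator Ppr1 and the uracil permease Fur4. They were chosen by name (URA1, YKL216W; URA2, YJL130C; URA3, YEL021W; URA4, YLR420W; URA5, YML106W; URA6, YKL024C; URA7, YBL039C; URA10, YMR271C; PPR1, YLR014C; FUR4, YBR021W), and all 10 were found among the 6264 genes of the expression table. The question put to them was whether ratios below 0 at URA3 extended to the other genes of the pathway. Transcript levels had been measured in 17 non-laboratory strains on 54 spotted oligonucleotide arrays, each of which hybridized RNA of 1 strain together with RNA of the laboratory strain DBY8268. Each of 14 strains had 3 arrays, and M8, Y10 and YPS163 had 4 each. Each value was a log2 ratio of strain over DBY8268, so a value below 0 meant less transcript signal in the strain than in DBY8268. A value of -1 stands for a level in the strain that is lower by 1 doubling.

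DBY8268 is a diploid strain of the S288C background that is ho/ho and GAL2/GAL2. At URA3 its genotype is ura3-52/ura3-delta, so that both copies of the gene are mutant alleles. The ura3-52 allele is known as an insertion of a Ty1 retrotransposon into the gene. Among the strains, B1, I14, M22, M8, PR and RM11a came from vineyards or wine making, K1 and K9 from sake brewing, YJM308 and YJM789 from the clinic and YPS163 and YPS1009 from oak. Y1, Y10 and SB were natural isolates, and Y12 and YJM269 came from other fermentations. RM11a and YJM789 are haploids. The labels give the 17 strains no genotype, but RM11a, also written RM11-1a, is widely described as carrying engineered deletions of URA3 and LEU2. All cultures were grown without treatment in YPD, a rich medium, to early log phase.

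De novo synthesis builds uridine monophosphate from glutamine, bicarbonate and aspartate. Ura2 forms carbamoyl phosphate and carbamoyl aspartate and is the step inhibited by the end product UTP, Ura4 closes the ring to dihydroorotate, Ura1 oxidizes it to orotate, Ura5 or its isozyme Ura10 adds phosphoribose, and Ura3 removes the carboxyl group. In budding yeast the zinc cluster protein Ppr1 responds to pathway intermediates upstream of Ura3 and activates URA1, URA3, URA4 and URA10, while URA2 and FUR4 are known to respond to uracil and UTP by other routes.

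Between 3393 and 5897 genes had a value per array (median 5305). Mating-type genes were read to mark the haploids and the direction of the ratios. The a-specific STE2 had a mean log2 ratio of 8.07 in RM11a, and the alpha-specific STE3 one of 7.44 in YJM789 (2 arrays). STE3 also read 3.87 in I14, 2.67 in SB and 1.40 in K1, so it did not mark YJM789 alone. The alpha-specific SAG1 read 5.56 in YJM789 and at most 0.18 in any other strain. Array 2 of YJM789 stood farthest from the other arrays of its strain (mean correlation across genes 0.368). Every strain was set against the same DBY8268, so low ratios of a gene in many strains are not independent of each other. The oligonucleotides were designed against the S288C genome, and a sequence difference under an oligonucleotide cannot be told apart from a lower transcript level by the ratio alone. Each array had been centred, so a change in the amount of RNA per cell cannot be told apart either. From genomic DNA hybridizations of some of the strains, the study put only a small share of its expression differences down to defective hybridization. Those hybridizations were not among the data used here.

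Over the strains, 4 of the 10 genes were lower than in DBY8268. URA1 was lowest at a mean log2 ratio of -3.09 ± 0.81 (SD over 17 strains), followed by URA4 at -1.23 ± 0.51 (17 strains), URA3 at -0.72 ± 0.37 (16 strains) and URA2 at -0.43 ± 0.25 (17 strains). URA6 was the only member that was higher, at 0.28 ± 0.27 (17 strains). URA5, URA7, URA10, PPR1 and FUR4 did not pass the test. The test was limma on the strain means of each gene with a value in at least 12 strains, at an adjusted p of 0.01. By this rule 16.9% of all 5726 genes tested were lower and 13% were higher. The median of the members' means was -0.16, against -0.03 over all genes tested.

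**Figure D1:**
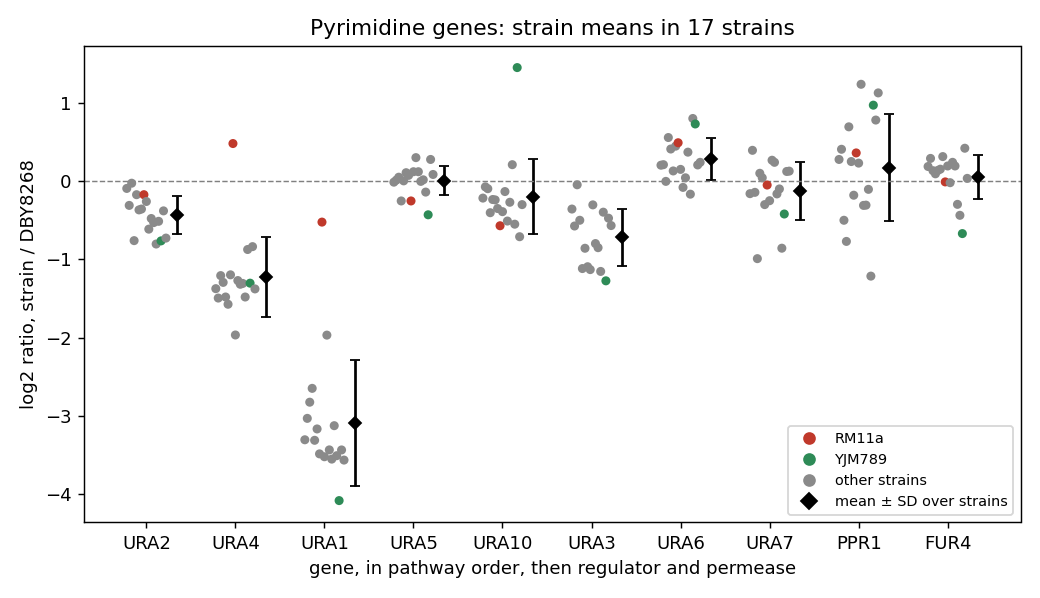
Mean log2 ratio of strain over DBY8268 (vertical axis) for the 10 genes in pathway order (horizontal axis). Each dot is 1 strain, RM11a in red and YJM789 in green, and black diamonds with bars give the mean ± SD over strains. URA1, URA4 and URA3 lie below 0 except URA4 in RM11a (0.48), URA1 of RM11a lies at -0.52 and apart from the other strains, and URA10 of YJM789 lies alone at 1.45.

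Strain by strain, most calls lay in 3 genes. Of 169 gene and strain pairs with a value, 46 were called lower than DBY8268 (27.2%) and 3 higher (1.78%), at an adjusted p of 0.01 within each strain. Over all genes, 4.88% of pairs were called lower and 3.86% higher, and the share called lower ran from 2.97% in B1 to 10.7% in M22. URA1 and URA4 were each called lower in 16 of 17 strains and URA3 in 9 of 16. The other 7 genes held 5 of the 46 lower calls and the 3 higher ones. Of their 119 pairs, this was 4.20% lower and 2.52% higher, below the shares over all genes. The counts for URA3 and URA4 depended on pooling the arrays: URA3 was called lower in 1 strain with slide series yG5 alone, 2 with yG6 alone and 1 when every strain was fitted alone, and URA4 in 7, 9 and 5. URA1 was called lower in 12, 16 and 12 strains under the same settings. Slide series yG5 held only 14 strains, without M22, RM11a and YJM789, so its counts are not out of 17.

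**Figure D2:**
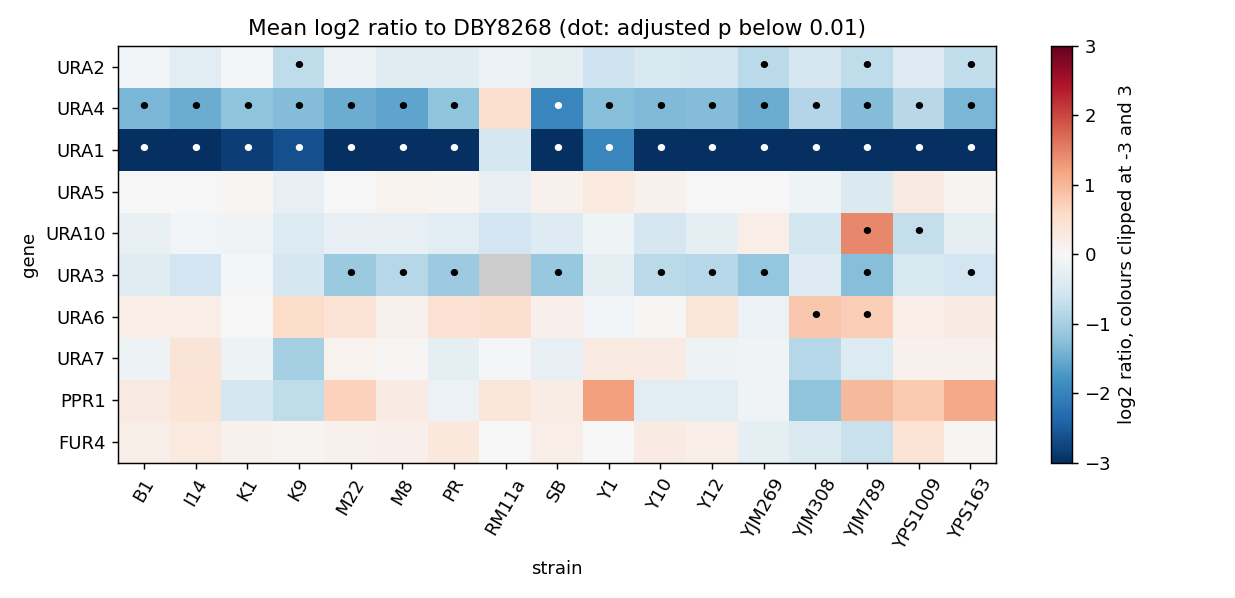
Mean log2 ratio to DBY8268 of each gene (rows, in pathway order) in each strain (columns), with blue below 0, red above 0, grey for no value and colours clipped at -3 and 3. A dot marks an adjusted p below 0.01 (limma), and the dots fill the rows of URA1 and URA4 in all strains but RM11a.

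Ura2 catalyses the first steps of the pathway. URA2 had a value on all 54 arrays, from -1.17 to 0.39, and every strain mean was below 0, from -0.80 in YJM269 to -0.03 in K1. Its mean over strains corresponded to a 1.35-fold higher level in DBY8268 (adjusted p = 1.8e-05, limma). The decrease was shallow, and only K9, YJM269, YJM789 and YPS163 passed the test on their own (3 to 5 strains when 1 array was left out). In YJM269 the 3 arrays read -0.69, -0.55 and -1.17 (adjusted p = 5.3e-04, limma), and in K9 they read -0.84, -0.47 and -0.97 (adjusted p = 0.0013, limma). In YJM789 the values were -0.78, -1.07 and -0.44, and in YPS163 they were -0.60, -0.82, -0.55 and -0.94 over 4 arrays. In all, 13 of 17 strains were below 0 on every array, and B1, I14, K1 and SB each had 1 array above 0. The count of 4 was 0 with yG5 alone or when every strain was fitted alone, 1 with yG6 alone, and 7 with the slide series as a block or with array weights.

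Ura4, the dihydroorotase, and Ura1, the dihydroorotate dehydrogenase, act next. URA4 had a value on 52 arrays. Outside RM11a its values ran from -2.14 to -0.33 over 49 arrays, all below 0, with strain means from -1.97 in SB to -0.84 in YPS1009. The mean over 17 strains corresponded to a 2.34-fold higher level in DBY8268 (adjusted p = 1.5e-07, limma). The lowest strain, SB, read -1.79 and -2.14 on the 2 arrays that had a value. YPS1009 read -0.74, -0.71 and -1.06, and YJM308 read -1.14, -0.33 and -1.15, the 2 strains nearest to 0 after RM11a. Genes of chromosome XII, which holds URA4, stood 0.48 above the mean of strains in YPS1009. From its genomic DNA hybridizations, the study inferred that this whole chromosome is duplicated in YPS1009. The part of this offset in the URA4 value was not tested. The count of strains called lower was 15 without array 3 of YPS1009 or without array 1 or array 3 of YJM308. The means of the other strains, from -1.57 in M8 to -1.20 in PR, were closer together than the arrays of K1 alone at -1.27, -0.64 and -1.71.

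URA1 showed the lowest mean of all members, at a place 62nd from the lowest of 5726 genes. Outside RM11a its values ran from -4.44 to -0.86 over 51 arrays. The mean over 17 strains corresponded to an 8.49-fold higher level in DBY8268 (adjusted p = 2.2e-10, limma). YJM789 was lowest, with -4.28, -3.81 and -4.15 on its 3 arrays (mean -4.08, 16.9-fold). Strain means then ran from -3.56 in YPS163 to -2.65 in K9 in small steps, and neighbours in that order differed by less than the spread between arrays of a strain. Arrays of K9 read -0.86, -3.18 and -3.90 and those of YJM308 -4.35, -2.39 and -3.78, so that a single array could lie far from the others. Y1 came next to last, at -1.12, -2.01 and -2.77 (mean -1.97, 3.91-fold), and was still called lower (adjusted p = 1.8e-04, limma). Without array 3 of Y1, the count of strains called lower was 15.

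RM11a was the exception for both genes. Its 3 URA1 values were -0.34, -0.47 and -0.76, with a mean of -0.52 ± 0.22 (SD) that did not pass the test against DBY8268 (adjusted p = 0.35, limma). Its 3 URA4 values were 0.60, 0.61 and 0.23, with a mean of 0.48 ± 0.22 (SD, adjusted p = 0.040, limma). No array of the other 16 strains reached the RM11a range in either gene, and the nearest for URA1 was array 1 of K9 at -0.86. Against the mean of the 17 strains, URA1 was higher in RM11a by 2.56 on the log2 scale (SE 0.37, adjusted p = 3.6e-06, limma) and URA4 by 1.71 (SE 0.17, adjusted p = 2.8e-09, limma). In that comparison 3.63% of all genes tested in RM11a were called higher. Against the oak strain YPS163, a comparison in which DBY8268 cancels, the differences were 3.04 for URA1 (SE 0.49, adjusted p = 2.6e-05, limma) and 1.86 for URA4 (SE 0.24, adjusted p = 6.1e-07, limma). Without RM11a, the mean over 16 strains was -3.25 ± 0.48 for URA1 and -1.33 ± 0.26 for URA4.

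All 3 arrays of RM11a belonged to slide series yG6, which also held arrays of each other strain. They lay on 3 slides that were shared only with the 3 arrays of YJM789. All other strains were therefore on other slides, and a part of these slides in the values of RM11a or YJM789 was not tested. Within that series alone, RM11a stood above the mean of strains by 2.90 for URA1 (adjusted p = 1.5e-05, limma) and by 1.83 for URA4 (adjusted p = 1.5e-04, limma). Against YPS163 within the series, the difference was 3.48 for URA1 and 1.66 for URA4. YPS163 had only 1 array there, at -4.00 for URA1 and -1.18 for URA4, so its spread within the series is not known. The chromosomes that hold the 2 genes, XI and XII, were offset in RM11a by -0.02 and -0.03 from the mean of strains.

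**Figure D3:**
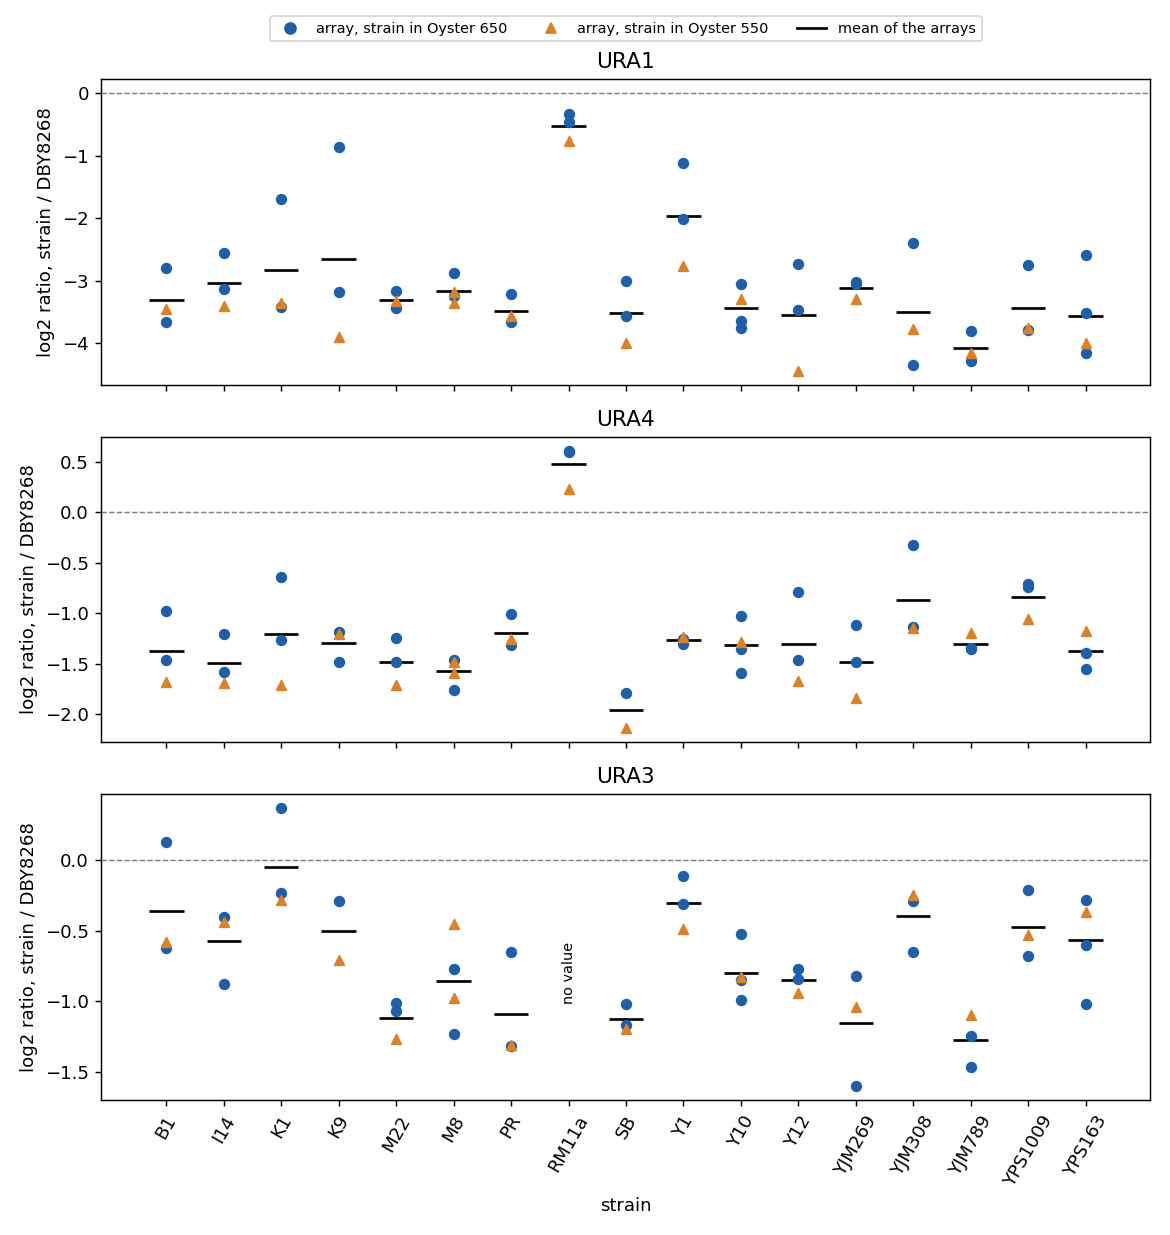
Log2 ratio of strain over DBY8268 on each array (vertical axes, each with its own range) for URA1, URA4 and URA3 in the 17 strains (horizontal axis). Circles and triangles are arrays of the 2 dye orientations, and black lines are strain means. RM11a lies at -0.76 to -0.34 for URA1 and at 0.23 to 0.61 for URA4, above every other array, and has no URA3 value.

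The orotate phosphoribosyltransferase step has the isozymes Ura5 and Ura10. URA5, the major form, was the most even member, with strain means from -0.43 in YJM789 to 0.30 in Y1 and a mean of 0.00 ± 0.19 over 17 strains (adjusted p = 0.96, limma). URA10 had a value on 45 arrays. Outside YJM789 its strain means lay between -0.71 in YPS1009 and 0.21 in YJM269. YPS1009 read -0.61, -0.80 and -0.72 and was the only strain called lower (adjusted p = 0.0045, limma). No strain was called lower when any of these 3 arrays was left out, and 4 or 3 were when array 2 or array 3 of M22 was.

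YJM789 departed from the others in URA10. Its 2 arrays with a value read 2.01 and 0.89, and the third had none. Both values came from the same dye orientation, and the third array was the only dye-reversed one of this strain. The value of 0.89 was from array 2, which stood farthest from the other arrays of its strain (mean correlation 0.368). The mean of 1.45 was higher than in DBY8268 (adjusted p = 6.0e-06, limma), higher than the mean of strains by 1.65 (SE 0.22, adjusted p = 9.4e-07, limma) and higher than YPS163 by 1.75 (SE 0.28, adjusted p = 2.7e-05, limma). In YJM789, 13.1% of all genes were called higher than DBY8268 and 8.8% higher than the mean of strains. Within slide series yG6 the difference from the mean of strains was 1.64 and did not pass the test (adjusted p = 0.064, limma). The next highest array was M22 at 0.48, below both YJM789 values. Whether the oligonucleotides of the isozyme pairs URA5 and URA10, and URA7 and URA8, tell each pair apart was not tested.

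Ura3, the orotidine monophosphate decarboxylase, completes uridine monophosphate. URA3 had a value on 50 arrays, from -1.60 to 0.37, and none on the 3 arrays of RM11a or on array 1 of K9. All 16 strain means were below 0, and their mean corresponded to a 1.64-fold higher level in DBY8268 (adjusted p = 4.9e-06, limma). What RNA bound the URA3 oligonucleotide in the DBY8268 channel was not tested. M22, M8, PR, SB, Y10, Y12, YJM269, YJM789 and YPS163 were called lower, and the other 7 strains with a value were not. This count of 9 was 8 without array 3 of Y12 or without array 1, 2 or 4 of YPS163. YJM789 was lowest with -1.25, -1.47 and -1.10 (mean -1.27, adjusted p = 3.5e-07, limma), followed by YJM269 with -1.60, -0.82 and -1.04 and SB with -1.17, -1.02 and -1.20. At the other end, K1 read -0.23, 0.37 and -0.28 (mean -0.05, adjusted p = 0.93, limma) and Y1 read -0.11, -0.31 and -0.49 (mean -0.30, adjusted p = 0.27, limma). The arrays of K1 and of YJM789 did not overlap, but these strains were picked for the highest and lowest means. The lack of overlap is therefore no test of a difference. Against the mean of strains, K1 was higher by 0.67 (adjusted p = 0.017, limma) and YJM789 differed by -0.56 (adjusted p = 0.016, limma), and neither passed the threshold. No URA3 pair was called against YPS163, which itself read -0.60, -1.02, -0.28 and -0.37.

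Ura6 phosphorylates uridine monophosphate, and Ura7 with its isozyme Ura8 turns UTP into CTP. URA6 had strain means above 0 in 14 of 17 strains, and the mean over strains was 1.21-fold above DBY8268 (adjusted p = 0.0025, limma). It was called higher in YJM308, at 1.23, 0.26 and 0.91 (mean 0.80, adjusted p = 3.3e-04, limma), and in YJM789, at 0.72, 0.56 and 0.91 (mean 0.73, adjusted p = 5.4e-04, limma). Chromosome XI, which holds URA6 as well as URA1, stood 0.55 above the mean of strains in YJM308, and its part in the URA6 value was not tested. RM11a read 0.49, 0.51 and 0.47. URA7 was called in no strain (2 were lower at an unadjusted p under 0.05, limma) and had a mean of -0.13 ± 0.37 (17 strains, adjusted p = 0.26, limma). Its lowest arrays were 1 each of YJM308 at -2.11 and K9 at -2.02, and the other arrays of K9 read -0.54 and -0.41.

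PPR1, the gene of the activator, had a mean of 0.17 ± 0.68 over 17 strains (adjusted p = 0.39, limma) and was called in no strain against DBY8268 (1 lower and 4 higher at an unadjusted p under 0.05). Its strain means spread from -1.21 in YJM308 to 1.24 in Y1. YJM308 read -1.58, -1.10 and -0.96, below 0 on each array, whereas Y1 read 2.86, 0.57 and 0.28 and YPS163 read 2.58, -0.21 and 1.01. A single array carried much of the mean in the latter strains. These arrays, at 2.86 and 2.58, were both of slide series yG4 and were the only arrays of that series with a PPR1 value. A part of the slide series in these values was not tested. The difference of YJM308 from YPS163 was -2.34 (SE 0.52, adjusted p = 0.0037, limma), and it was -1.61 (adjusted p = 0.078, limma) without array 1 of YPS163. It also lost its call without array 3 of YPS163 (adjusted p = 0.0135, limma) and without array 1 (adjusted p = 0.029, limma) or array 3 of YJM308 (adjusted p = 0.0104, limma). PPR1 in RM11a read 0.86, -0.38 and 0.60, within the range of the other strains. PPR1 also lies on chromosome XII, which was offset by 0.48 in YPS1009. The PPR1 mean of that strain was 0.78, and the part of the offset in it was not tested.

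FUR4, the gene of the permease that imports uracil, was called in no strain (1 lower at an unadjusted p under 0.05, limma). Its strain means ran from -0.67 in YJM789 to 0.42 in YPS1009, with a mean of 0.06 ± 0.28 over 17 strains (adjusted p = 0.55, limma). RM11a read 0.93, 0.14 and -1.10, the widest spread of any strain in this gene.

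Among the 17 strains, an F test on the strain coefficients of the limma fit over all arrays called 4 of the 10 members as varying at an adjusted p of 0.01, against 17.9% of all genes. These were URA4 (adjusted p = 9.3e-07), URA1 (adjusted p = 3.2e-04), URA10 (adjusted p = 4.3e-04) and URA3 (adjusted p = 6.3e-04, all limma). The strain that stood apart was RM11a in URA1 and URA4 and YJM789 in URA10. All 4 genes are known as targets of Ppr1, and a part of Ppr1 in this variation was not tested. PPR1 and URA6 missed the threshold (adjusted p = 0.018 each, limma). Of the 169 gene and strain pairs, 3 were called higher than the mean of strains (1.78%) and none lower, against 1.59% and 1.07% over all genes. Of 159 pairs set against YPS163, 3 were called higher (1.89%) and 1 lower (0.629%), against 1.47% and 0.533%. These shares lay near those over all genes. At an unadjusted p under 0.05, 15 pairs were higher and 19 lower than the mean of strains (limma). The pairs called were those of RM11a with URA1 and URA4, YJM789 with URA10, and, against YPS163 only, YJM308 with PPR1.

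The strain means of URA1 and URA4 had a Pearson r of 0.71 over 17 strains and of 0.00 over the 16 strains without RM11a. For URA1 with URA3 the r was 0.56, and for URA3 with URA4 it was 0.48, both over the 16 strains with a URA3 value. The points share the DBY8268 reference and the arrays. The genes whose strain means were most like those of URA1 were HUA2 (r 0.90 over 16 strains), the splicing factor gene HSH155 (0.90 over 17), SUA7 for the transcription factor TFIIB (0.87 over 16), the exocyst gene EXO84 (0.86 over 16) and the diphthamide synthesis gene DPH1 (0.86 over 17), and without RM11a these fell to between 0.49 and 0.77. For URA4 they were PAU13, CGI121, PAU5, DSS1 and MCM10 (r 0.85 to 0.87), which fell to between 0.15 and 0.45 without RM11a. PAU13 and PAU5 belong to a family of near-identical genes, so their values are uncertain. For URA3 they were RRP14, DIA1, the sterol methyltransferase gene ERG6, the casein kinase gene YCK1 and CPP2, with r from 0.81 to 0.87 over 16 strains. These were the highest correlations over all genes and are given as a description.

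The low ratios were present in both dye orientations and in both large slide series. These are not separate checks: all 18 dye-reversed arrays belonged to yG6, and no array of yG5 was dye-reversed. Only M22, RM11a and YJM789 had both orientations within 1 series, so dye and series cannot be told apart in the other strains. Arrays with the dyes reversed read lower than the others by -0.52 for URA1 (SE 0.17, adjusted p = 0.071, limma), and no member passed the test for a dye effect (3 did at an unadjusted p under 0.05, limma), which 2.42% of all genes did. In slide series yG5 (14 strains) and yG6 (17 strains) the mean over strains was -3.07 and -3.42 for URA1 and -1.23 and -1.35 for URA4. For URA3 these means were -0.65 and -0.75, for URA2 -0.35 and -0.56, and for URA6 0.21 and 0.36.

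Another 26 genes of uptake, salvage, precursor supply and nucleotide conversion were followed to see whether the difference reached beyond the biosynthetic steps. Of the 25 with values in enough strains, 4 were lower over the strains, 4 were higher and 17 did not pass, with a median of 0.04. These counts lay near the shares over all genes (16.9% lower and 13% higher). Of their 433 gene and strain pairs, 14 were called lower (3.23%) and 14 higher (3.23%) than DBY8268, below the 4.88% and 3.86% over all genes. The 4 genes that were lower are listed among the 8 of uptake and salvage. CDD1, the cytidine deaminase gene, had a mean of -1.57 ± 0.77 over 17 strains (adjusted p = 8.7e-07, limma), with strain values from -3.79 in M22 to -0.21 in YJM789, which had a value on 1 array each, and was called in 4 strains. The uridine permease gene FUI1 had a mean of -0.64 ± 0.64 (adjusted p = 0.0016, limma), the nucleoside transporter gene FUN26 one of -0.42 ± 0.23 (adjusted p = 1.1e-05, limma) and the cytosine deaminase gene FCY1 one of -0.27 ± 0.17 (adjusted p = 1.6e-04, limma).

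Of the same 8 genes, the cytosine permease gene FCY2 was higher, at 0.57 ± 0.41 (adjusted p = 9.7e-05, limma). FUR1, whose product makes uridine monophosphate from uracil, read -0.06 ± 0.38 (adjusted p = 0.63, limma). FUR1 had a value on 28 arrays only and URA8 on 32, so that many of their strain means rest on 1 array. URA8 read -0.24 ± 0.49 (adjusted p = 0.096, limma), and none of the 7 genes of nucleotide conversion passed (1 was lower and 4 higher at an unadjusted p under 0.05, limma). Of the 7 precursor genes, only PRS5, a phosphoribosyl pyrophosphate synthetase gene, was higher (0.22 ± 0.21, adjusted p = 0.0031, limma). The ribonucleotide reductase small subunit genes RNR2 and RNR4 were higher, at 0.40 ± 0.39 (adjusted p = 0.0017, limma) and 0.47 ± 0.42 (adjusted p = 8.5e-04, limma), whereas RNR1 was not called. RNR3 had values in 8 strains only and was not tested over the strains. In RM11a, CDD1 read -1.93 (2 arrays), FUI1 -0.47, FUN26 -0.57 and FCY1 -0.43. Each lay within 1 SD of its mean over strains, and all but FUI1 lay below that mean.

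**Figure D4:**
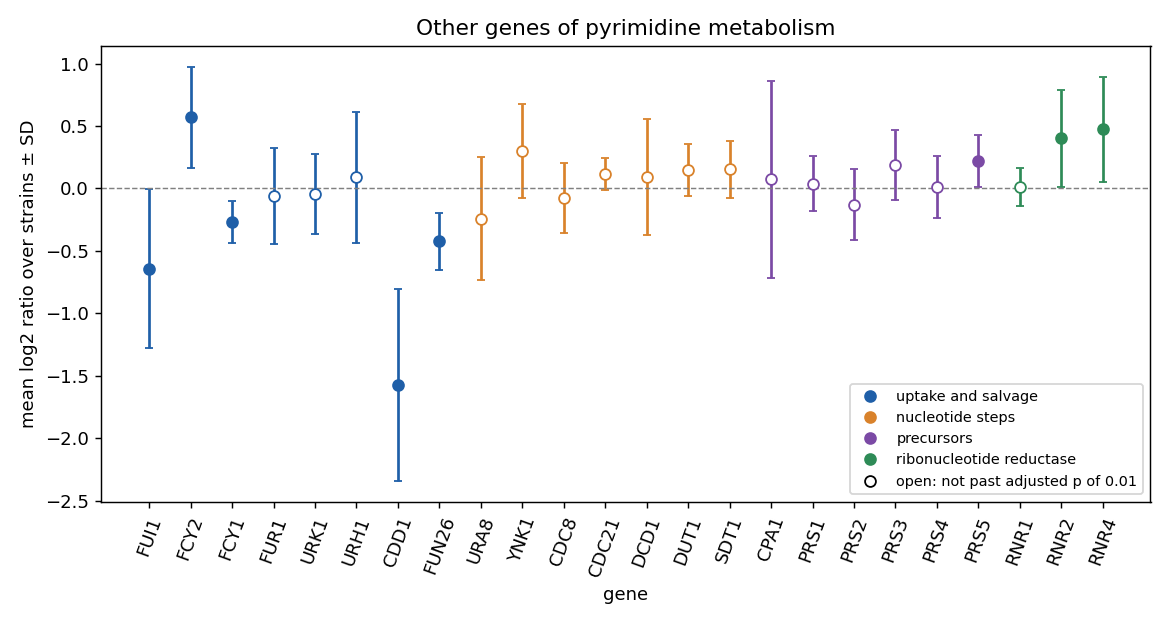
Mean log2 ratio of strain over DBY8268 with the SD over strains (vertical axis) for other genes of pyrimidine metabolism tested, 1 of the 25 left out (horizontal axis), coloured by subgroup, with filled points past an adjusted p of 0.01. CDD1 lies lowest at -1.57, and most of the other genes lie within 0.5 of 0.

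The 3 genes on either side of URA3 on chromosome V were examined because the locus is mutated in DBY8268. RIP1, for the Rieske iron-sulfur protein of the respiratory chain, was called higher in all 17 strains with a mean of 2.14 ± 0.42. TIM9, for a mitochondrial import chaperone, read 0.74 ± 0.39 (adjusted p = 3.1e-06, limma) and was called higher in 4 strains. GEA2, for an Arf exchange factor and the gene next to URA3 on one side, read -0.41 ± 0.34 (adjusted p = 6.0e-04, limma) and was called in no single strain (6 lower at an unadjusted p under 0.05). MMS21, a SUMO ligase gene, read -0.42 ± 0.30 over 14 strains (adjusted p = 5.7e-04, limma), YEL023C 0.25 ± 0.52 (adjusted p = 0.10, limma) and PXP1 0.09 ± 0.40 (adjusted p = 0.46, limma). Of the 6 neighbours, 2 were lower and 2 higher, where 16.9% and 13% of all genes were. In RM11a, where URA3 had no value, GEA2 read -0.14 and TIM9 0.62. The study lists genes of respiration and of the mitochondrion among the groups with lower expression in S288C. A part of the URA3 mutation in the ratios of its neighbours was not tested.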

How the data were processed

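The values were the log2 ratios of strain over DBY8268 that the authors deposited, 1 per gene and array, made from two-colour spotted arrays. Per the study's methods, unflagged spots with a pixel correlation R2 above 0.1 were kept and each array was normalized by regional mean-centering. Ratios of the 18 dye-reversed arrays needed no change of sign: the 38 pairs of arrays that hold 1 strain in either dye all had a positive correlation. The depth of a spot is not carried by a ratio, so the number of arrays limits the precision. In all, 19.1% of values were missing. Of the 6264 genes, 5824 matched assembly R64, which gave symbols and gene order.

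Tests used limma 3.58.1 in R 4.3.3 with Benjamini-Hochberg adjustment over all genes at 0.01. One fit with a coefficient per strain over 54 arrays gave the comparisons with DBY8268 (ratio against 0), with the mean of strains and with YPS163, and an F test among strains. The test over the strains took 1 mean per strain. DBY8268 had no array of its own. Replicates were separate cultures per the study. A dye term and the slide series served as checks, which largely overlap because every dye-reversed array was in yG6. The code was tested on simulated data. The members and the lists of other genes were chosen with earlier results of these data known. Named were all members, the strains called for them, the 10 other pyrimidine genes of largest mean among those called with URA8 and FUR1, all URA3 neighbours and the 5 genes most like URA1, URA3 and URA4. The values of 1 of the other pyrimidine genes are not reported here.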

Additional observations from a re-analysis of the deposited data

Results flagged for a closer look

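The ratio to DBY8268 differed among the 17 strains for 4 genes by an F test in limma over all strains. For URA4 the adjusted p was 9.3e-07, with RM11a at 0.48 and all other strain means at or below -0.84. For URA1 it was 3.2e-04, with RM11a at -0.52 and the others between -4.08 and -1.97. For URA10 it was 4.3e-04, with YJM789 at 1.45 and the others between -0.71 and 0.21. For URA3 it was 6.3e-04, with means spread from -1.27 in YJM789 to -0.05 in K1 and no strain set apart. A check for a single array far from the rest took only combinations of a gene with a strain that had 4 values. It could therefore cover only M8, Y10 and YPS163, and 0 of its 23 combinations held such an array. Combinations with fewer values could not enter it. Among these were URA1 in K9 (-0.86, -3.18 and -3.9) and PPR1 in Y1 (2.86, 0.57 and 0.28). The check says nothing about single arrays in such combinations.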

How the results depend on the processing

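The calls over the strains (4 lower) stayed at 4 or 5 under 14 alternatives, and no result past its threshold changed direction under any alternative or when 1 of the 54 arrays was left out. Means near 0 did change sign: PPR1 over the strains was -0.02 with yG6 alone (0.17 in the report), and URA5 was -0.04 with yG6 alone, -0.01 with a dye covariate, -0.0013 with array weights and between -0.02 and 0.02 when 1 array was left out (0.00 in the report). With arrays of slide series yG5 alone, which holds no array of RM11a, YJM789 or M22, the members had 20 calls lower and 0 higher against DBY8268 (46 and 3 in the report), 0 in either direction against YPS163, 0 higher than the mean of strains, 0 higher over the strains and 0 varying among strains. With yG6 alone they had 28 lower and 1 higher against DBY8268, 1 higher and 0 lower against YPS163, and 2 varying. Both settings leave many strains with 1 array, which is assumed to vary like the others. Each strain fitted on its own arrays gave 18 lower and 0 higher against DBY8268 and 0 higher than the mean of strains. Array weights gave 9 higher against DBY8268, 6 higher and 7 lower than the mean of strains (3 and 0 in the report), and 8 varying (4 in the report). Arrays centred on the median gave 2 lower against YPS163 (1 in the report) and 2 lower than the mean of strains, and scaling the arrays gave 1 lower than the mean of strains. At a threshold of 0.05, 8 were higher than DBY8268. The causes were not tested.

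Leaving out 1 array gave 44 to 49 lower and 2 to 5 higher against DBY8268, 0 to 1 lower and 3 to 4 higher than the mean of strains, 0 to 2 lower and 3 higher against YPS163, 3 to 6 varying, and 4 lower and 1 higher over the strains. For the other pyrimidine genes it gave 4 to 5 lower and 4 to 5 higher. The high count of 5 against DBY8268 came without array 3 of Y1. URA10 no longer varied among strains without array 1 of YJM789 (adjusted p = 0.0266, limma), where its difference from the mean of strains was 1.12.

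Replicate numbers were not taken as pairing: residuals of arrays of different strains with the same number had a mean correlation of 0.08 (411 pairs), and those with different numbers one of -0.03 (960 pairs). The fit with the replicate block gave 48 lower and 5 higher against DBY8268, 2 lower against YPS163, 1 lower than the mean of strains and 5 varying.

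For single results, RM11a fitted on its own arrays missed the threshold against the mean of strains for URA1 (adjusted p = 0.0107, limma) and URA4 (adjusted p = 0.026, limma), as did URA10 in YJM789 (adjusted p = 0.23, limma). URA10 over the strains passed without the haploids (mean -0.28, adjusted p = 0.0011, limma). URA6 over the strains missed the threshold in yG5 alone (adjusted p = 0.018, limma), and URA1 no longer varied among strains with scaled arrays (adjusted p = 0.026, limma). Without RM11a, a setting chosen after seeing the data, 4 members were lower and 1 was higher over the strains. The ratios carry no spot signal, so low signal could not be weighed.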

Other observations

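Among the other pyrimidine genes, 5 of 26 varied among strains by the F test in limma, near the 17.9% of all genes, and 2 of these, chosen after their values were seen, are described here. CPA1, a gene of carbamoyl phosphate supply for arginine synthesis, ran from -1.09 in YJM308 to 1.75 in Y1 (adjusted p = 0.0017 among strains). URH1, the uridine nucleosidase gene of salvage, ran from -1.21 in M22 to 1.45 in YJM789 (adjusted p = 1.1e-04). YJM789, which was lowest of all strains in URA1 and URA3, was also lowest in FUI1 (-2.22).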
